A study of Mus musculus with 4 samples.

Results

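The quantity described here is how far the effect of RU486 on mammary tumour gene expression differed between MMTV-PAX8PPARg and wild-type (WT) mice. For each gene the RU486 minus placebo difference was taken within each genotype, and the WT difference was then subtracted from the PAX8PPARg difference. This double difference is positive where RU486 went with a higher level, or a smaller deficit, in PAX8PPARg than in WT, and negative in the opposite case. It was formed for all 12393 of the 12393 genes that had a probe set with exactly 1 gene symbol, from all 4 of the 4 arrays. All differences are in units of log2(signal + 16), with the array's median subtracted, so a value of 1 is a 2-fold and a value of 2 a 4-fold difference. The added 16 makes the differences of dim genes smaller than their ratio of signals.

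RU486 (mifepristone) blocks the progesterone receptor and the glucocorticoid receptor. In the mammary gland progesterone acts on hormone-sensing luminal cells, which signal to neighbouring basal and alveolar cells through secreted factors such as RANKL, and it supports the growth of side branches and alveoli. PAX8PPARg joins the paired-box transcription factor PAX8 to PPARg, the nuclear receptor that directs fat cell differentiation; the fusion was found in follicular thyroid tumours. The MMTV promoter that drives it is active in mammary epithelium and carries response elements for the same steroid receptors that RU486 blocks.

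All mice were female and had never been pregnant. They were of the FVB strain, the WT animals were littermates of matched age, and all 4 groups had the same tumour induction: 15 mg of the progestin MP (Depo-Provera) under the skin, then 4 weekly gavage doses of 1 mg of the carcinogen DMBA. The groups differed in genotype and in the content of 60-day release pellets, which held placebo or 2.5 mg RU486, were first placed on the day that followed the final DMBA dose and were given again after 60 days. Each group had 1 array of RNA pooled in equal parts from 5 mice. How much mice or pools vary is therefore not known, no test is possible, and every value below is an effect size of 4 pools. A single deviating pool enters the double difference of every gene with its full weight, and the same number also measures how the genotype difference changed between treatments.

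Most luminal epithelial genes were above background on all 4 arrays. On the WT RU486 array 4 of the 21 measured were not, and on each other array all 21 were. Signals are given throughout with the WT arrays first and the PAX8PPARg arrays second, placebo before RU486 in each pair. Krt18, a keratin of luminal cells, read 9097, 2507, 7472 and 11258, and Epcam, an epithelial adhesion gene, read 6249, 479, 5564 and 7339. The WT RU486 array was the lowest of the 4 for both. Pax8 was not above the background range on any of the 4 arrays and no probe set is known here to read the fusion transcript, so the transgene itself was not checked.

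The arrays had nearly the same trimmed mean signal, between 499.95 and 499.96. The highest of 27 control probe sets for bacterial transcripts read 9.6, 18.5, 8.3 and 35.3. A gene no brighter than this value of its own array is described as within the background range. This held for 1787, 2375, 1651 and 2826 genes. The 18 spike-in probe sets were 1.58, 1.01 and 2.43 times as bright on the other 3 arrays, in that order, as on the WT placebo array, so both RU486 arrays were the brighter ones. The ratio of 3' to 5' Gapdh signal, a measure of RNA integrity, was 2.51, 3.33, 2.89 and 3.01. The part of these technical differences in the results was not tested.

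Most genes had RU486 differences less than 2-fold apart in the genotypes, while a minority differed by large amounts. Of all 12393 genes, 8959 (72.3%) had a double difference within 1 log2 of 0. A double difference of at least 2 log2 was positive for 645 genes (5.20%) and negative for 472 (3.81%). Among the 6197 genes whose mean level was not under that of the middle gene, the counts were 248 (4.0%) and 185 (2.99%), and 136 and 47 of these passed 3 log2, or 8-fold. The centre of the 6197 values was 0.14 log2 and 90% of them lay between -1.53 and 1.68. Without centring of the arrays the median was 0.00, so the centre of the values depends on the scaling.

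The RU486 differences of the 2 genotypes, which share no array, were nearly uncorrelated across genes. Over the 6197 genes the Pearson correlation between them was -0.09 and Spearman's was 0.02. These describe genes, which are not independent replicates. The spread over genes was an SD of 0.88 log2 in WT and 0.70 in PAX8PPARg, and 1.17 for the double difference. At least 2-fold lower levels with RU486 in WT together with at least 2-fold higher levels in PAX8PPARg were seen for 251 of all genes (2.03%), and the reverse for 131 (1.06%). By comparison 183 genes were at least 2-fold lower in both genotypes and 117 were at least 2-fold higher in both.

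**Figure D1:**
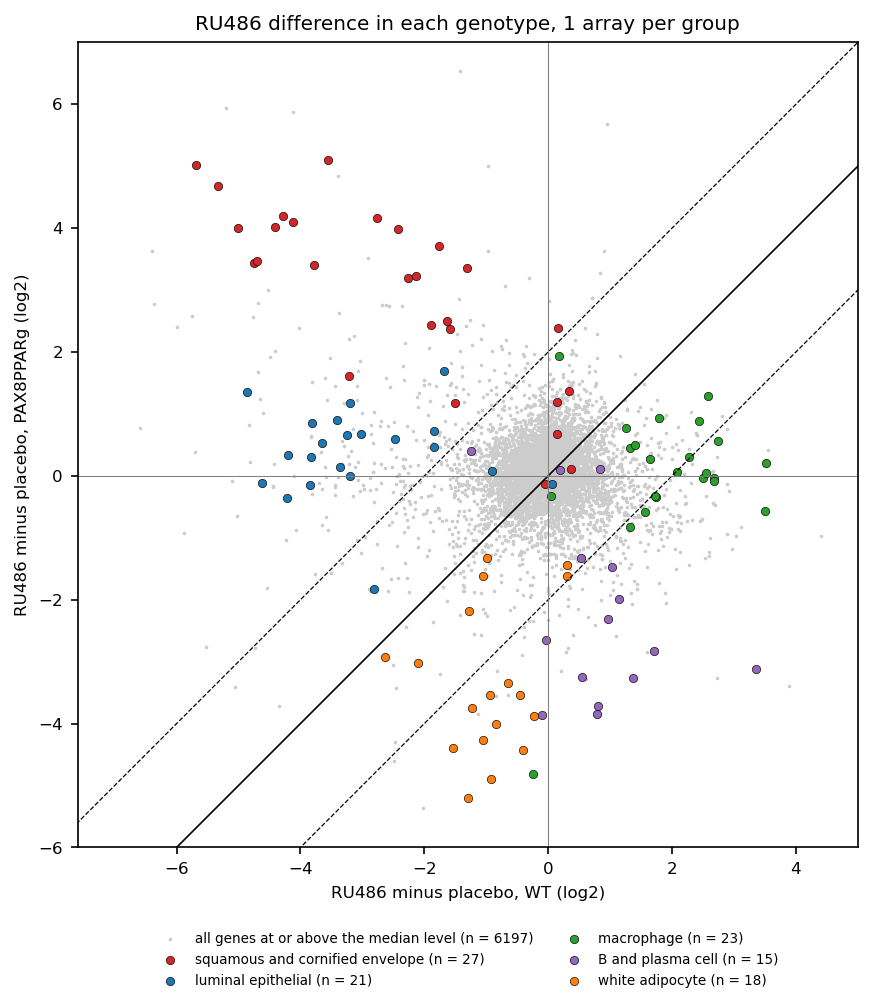
RU486 minus placebo in WT (x axis, log2) against RU486 minus placebo in PAX8PPARg (y axis, log2), 1 array per group. Grey points are the 6197 genes at or above the median level, coloured points are all measured members of 5 gene lists, the solid line marks equal differences and the dashed lines a double difference of 2 log2. Squamous genes lie at the upper left, luminal genes at the left, macrophage genes at the right, and adipocyte and B cell genes at the bottom.

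The genes past 4-fold were sorted by the response in each genotype and by the arrays that stood apart. Of the 248 positive genes, 119 (48%) differed at least 2-fold in WT only, 87 (35.1%) differed in opposite directions in the 2 genotypes, 37 (14.9%) differed at least 2-fold in PAX8PPARg only, and 5 differed in the same direction by unequal amounts. Of the 185 negative genes the numbers were 89, 47, 45 and 4. For 83 of the positive genes the WT RU486 array stood alone, at least 1 log2 below the other 3 arrays, which lay within 1 log2 of each other. For 69 of the negative genes it stood alone above them. These are 33.5% and 37.3% of the genes in either direction, and their double differences rest on this 1 pool. The WT RU486 array was the lowest of the 4 for 200 of the 248 positive genes and the highest for 138 of the 185 negative genes.

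Another pattern set the arrays in crossed pairs. In 45 positive genes (18.1%) both the WT placebo and the PAX8PPARg RU486 array were at least 1 log2 above both others, and in 14 negative genes (7.57%) they were at least 1 log2 below both. The first kind held Mmp13, Krt6a, Saa1, Saa3 and S100a14, and the second Igkv8-30, Ighm, Igk and Jchain. Fewer genes owed their value to another single array: 10 positive genes had the PAX8PPARg placebo array alone below the rest, and 9 negative genes had it alone above the rest. No single array or crossed pair stood apart in this way for 100 positive genes (40.3%) and 86 negative genes (46.5%).

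**Figure D2:**
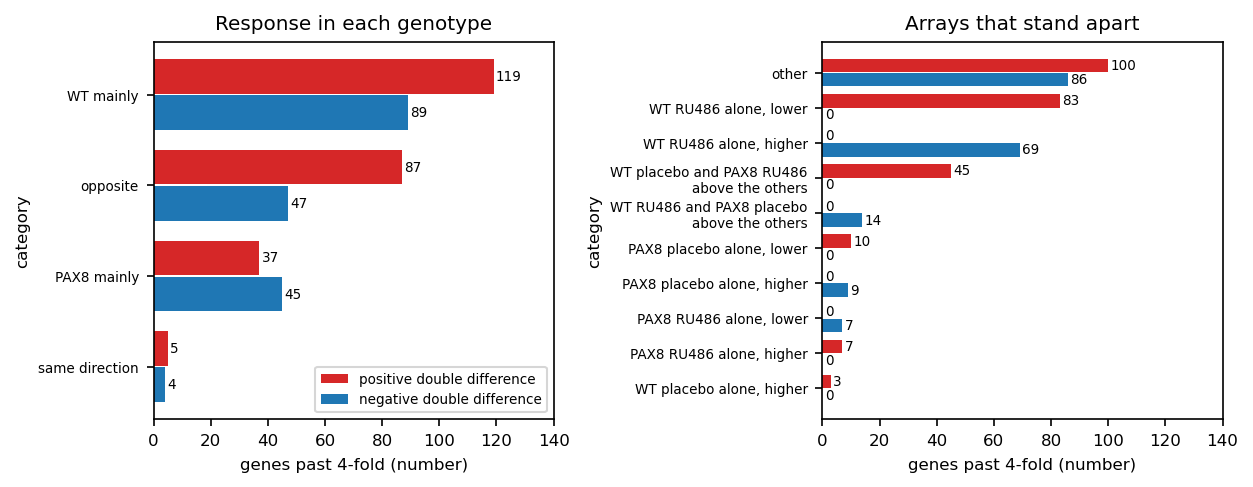
Number of genes (x axis) past a 4-fold double difference among the 6197, by the response in each genotype (left) and by which arrays stood apart by at least 1 log2 (right), with PAX8PPARg shortened to PAX8. Red bars are the 248 positive and blue bars the 185 negative genes; the WT RU486 array alone accounts for 83 and 69 of them.

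Among the 6197 genes at or above the median level, the largest positive double differences belonged to genes of matrix breakdown, keratinised epithelium and the acute phase. Dimmer genes were not ranked, although some named below, such as Krt16 (10.03) and Klk6 (9.54), had values as large. Mmp13, the collagenase-3 gene, read 2357, 48.7, 5.4 and 1175, the third within the background range. The placebo array was far above the RU486 array in WT and far below it in PAX8PPARg. Its RU486 difference was -5.20 in WT and 5.93 in PAX8PPARg, a double difference of 11.13, or 9.87 when signals under the highest background of the arrays were raised to it. Krt6a, a keratin of activated squamous epithelium, read 1308, 9.7, 48.6 and 1890, with a double difference of 10.70 and 10.13 on its second brightest probe set. Saa1, a serum amyloid gene of the acute phase, read 8604, 86.5, 70.8 and 963, a double difference of 10.02. In all 3 genes both the WT placebo and PAX8PPARg RU486 signals exceeded both others, an order that a ranking by the double difference itself favours.

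The next genes of this ranking were high on the same pair of arrays. S100a14, an epithelial calcium-binding protein gene, read 1453, 1.8, 402 and 2605 (9.15), Asprv1, a protease gene of the cornified layer, 1221, 22.2, 276 and 4267 (9.03), and Krt79, a keratin of hair follicle openings and sebaceous ducts, 494, 27.6, 102 and 3656 (8.65). Aqp3, a water and glycerol channel of basal keratinocytes, read 558, 38.7, 46.7 and 1628, a double difference of 8.24 that was 6.72 and 3.35 on its other probe sets. Dmkn (8.22) and Krtdap (8.19), both of the differentiating epidermis, the Wnt inhibitor gene Wif1 (7.53) and the kallikrein protease gene Klk8 (7.48) completed the set of this kind. Wap, the whey acidic protein gene, and Mmp10, the stromelysin-2 gene, differed in pattern. Wap read 9419, 159, 34.2 and 257, far higher on the WT placebo array than on the rest, and Mmp10 read 2303, 844, 0.5 and 1385, low on the PAX8PPARg placebo array only.

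The promoters of the 15 genes with the largest double difference in each direction, at or above the median level, were searched. RefSeq's GRCm38.p6 windows of 250 bases before to 50 after each start site were used. A promoter was found for 13 of the positive and 7 of the negative genes. AP-1, the Jun and Fos factor known for its place in collagenase, stromelysin and keratinocyte genes, binds TGANTCA, a motif that reads the same on both strands. It was found in 4 of the 13 positive genes and 0 of the 7 negative genes, against 7.69% of the 9882 measured genes with a promoter and 7.81% of all 32851 promoters. Mmp13 and Mmp10 lie close together on chromosome 9, and Krtdap and Dmkn on chromosome 7, so the 4 genes are not separate loci. The difference between these shares was not tested. The matching stretches are shown because these genes lead the ranking; the motif is in capitals, and all lie on the plus strand.
Mmp13, chr9:7272459-7272505: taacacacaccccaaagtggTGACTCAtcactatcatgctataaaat
Mmp10, chr9:7502259-7502305: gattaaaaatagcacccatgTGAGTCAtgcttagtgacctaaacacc
Krtdap, chr7:30787804-30787850: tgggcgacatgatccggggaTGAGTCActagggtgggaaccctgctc
Dmkn, chr7:30763647-30763693: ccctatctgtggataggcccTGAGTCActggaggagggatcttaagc
Dmkn, a further start site, chr7:30776303-30776349: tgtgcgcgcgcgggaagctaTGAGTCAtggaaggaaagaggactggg

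The motif began 35 bases before the start site in Mmp13, 63 in Mmp10, 81 in Krtdap, and 89 and 82 in the windows of Dmkn. The STAT motif TTCNNNGAA, the palindromic glucocorticoid and progesterone receptor element and the PPAR element were found in 0 of the 13 and 0 of the 7. They are in 8.30%, 0.475% and 0.0396% of all promoters. A match is a run of letters and not a measured binding site. The median double difference of 20 AP-1 and immediate early genes was 0.01, with Fos at 695, 1797, 1578 and 332 (-3.41) and Fosl1 at 229, 876, 19.2 and 186 (0.79).

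Squamous, milk, luminal, hair and basal genes were on the positive side, and neutrophil genes as well. In a bulk sample fewer cells of a type and less RNA per cell cannot be told apart, which holds for every list below. Of 27 measured genes of squamous differentiation and the cornified envelope, the cross-linked protein shell of keratinised cells, 22 had a double difference of at least 2 log2 and 0 of at most -2. The list's median was 5.45 log2, from -2.27 in WT and 3.36 in PAX8PPARg, beside a median of 0.15 over all genes, and 21 of the 27 were at least 2-fold lower with RU486 in WT and at least 2-fold higher in PAX8PPARg. The summed signal of the list was 11634, 744, 2050 and 24728.

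Its members ranged from barrier structural proteins to the keratins of each layer. Krt10, a keratin of the layers above the basal one, read 1527, 149, 482 and 1369, above background on every array, and Sprr1a, a cornified envelope protein gene, read 1943, 127, 567 and 5597. Their double differences were 4.83 and 7.18. Krt16, a partner of Krt6a, read 778, 3.6, 9.7 and 588 (10.03), and Tgm1, the transglutaminase that cross-links the envelope, 179, 46.5, 75.9 and 459 (4.14). The squamous keratin and envelope genes Krt13, Sprr3 and Krt2 were within the background range on all 4 arrays. A total of 18 members were within that range on the WT RU486 array and 12 on the PAX8PPARg placebo array. The list's median was 3.14 with 64 added to the signals, 8.70 with 1 added and 3.68 with a common background floor.

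Hair follicle genes were high on the same arrays as the squamous genes. Of 19 measured, 14 had a double difference of at least 2 log2, and the median was 3.61 (-1.94 in WT, 1.35 in PAX8PPARg). The inner root sheath keratin gene Krt27 read 1300, 43.1, 8.8 and 656 (9.37), and Tchh, the gene of the sheath protein trichohyalin, read 731, 43.6, 19.9 and 1073 (8.70). The hair shaft keratin gene Krt31 was dimmer, at 158, 19.1, 12.2 and 47.5 (3.61). The summed signal was 3838, 344, 649 and 3641, so the same arrays were high as for the squamous list, and the transcription factor Hoxc13 was within the background range on all 4. No member reached the median level of all genes, and the median was 2.07 both with 64 added and with the common floor. The part of hair-bearing skin in the squamous values was not tested.

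Many of these genes lie next to each other in the genome. In RefSeq's GRCm38.p6 gene order, stretches were sought in which at least 4 of 10 consecutive measured genes passed 2 log2 in the same direction. The 15 positive stretches held 107 such genes between them, and the 7 negative stretches held 31. Over all genes, with no level filter, 645 were positive and 472 negative, so most lay outside these stretches. Dim genes within the background range on some arrays were counted as well. The keratin cluster of chromosome 11, from Krt25 to Krt17, had 16 of 25 genes past 2 log2, and the keratin cluster of chromosome 15, from Krt80 to Krt18, had 14 of 21. In the epidermal differentiation complex of chromosome 3, from S100a14 to Tchh, 19 of 37 passed, among them the S100 genes S100a8 (5.38) and S100a9 (5.44), Sprr1b (8.48), Crct1 (5.95), Flg (5.49) and Rptn (7.53). Neighbours with flat values stood between them, such as Krt12 (0.05) and Krt20 (-0.59) on chromosome 11, and S100a5 (-0.18) and Smcp (-0.70) on chromosome 3. Krt19, a luminal keratin inside the chromosome 11 cluster, was lower with RU486 in both genotypes (-2.82 and -1.83). Genes in such families have similar sequences and may share probes, so their values are not fully separate.

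**Figure D3:**
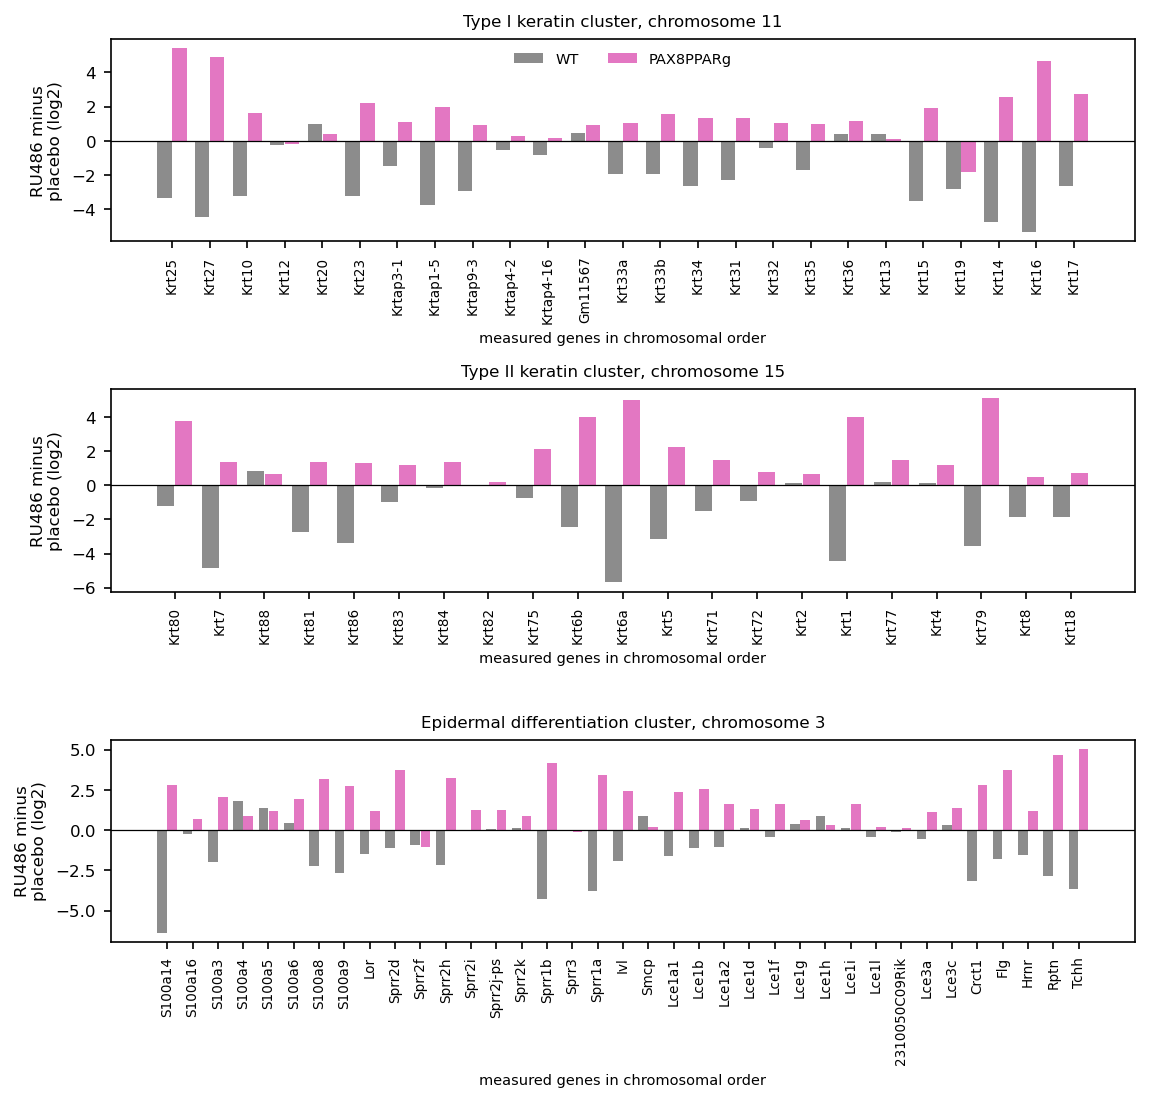
RU486 minus placebo (y axis, log2) in WT (grey bars) and PAX8PPARg (pink bars) for the measured genes of 3 gene clusters, in chromosomal order along the x axis. Bars of a gene point in opposite directions over most of each cluster, and both are small at genes such as Krt12 and Krt82.

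Smaller families gave stretches of the same sign. All 5 measured genes from Klk11 to Klk6 on chromosome 7, which encode kallikrein proteases that shed cornified cells, passed 2 log2. Klk6 read 2861, 31.1, 24.1 and 430 (9.54), and Klk7 read 891, 18.8, 37.5 and 524 (8.17). The stretch of chromosome 14 from Mcpt1 to Gjb6 held several kinds of gene: granzyme proteases of cytotoxic and uterine lymphocytes (Gzme at 654, 48.3, 26.7 and 433), a mast cell protease, and the gap junction genes Gjb2 (7.36) and Gjb6 (6.93). Gzmb, the granzyme of classical killer cells, was high on the WT placebo array only, at 419, 25.4, 41.2 and 40.3. On the negative side lay the immunoglobulin kappa genes of chromosome 6 (6 of 13), the heavy chain genes Igha, Ighg3, Ighm and Ighv14-2 of chromosome 12 (4 of 4), the Cd209 lectin genes of chromosome 8 with Retn (5 of 10), and the Cd3 genes of chromosome 9. Beside Cd3d (-4.18), Cd3e (-2.27) and Cd3g (-3.20) stood the epithelial protease gene Tmprss4, at 6.01 the opposite way.

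**Figure D4:**
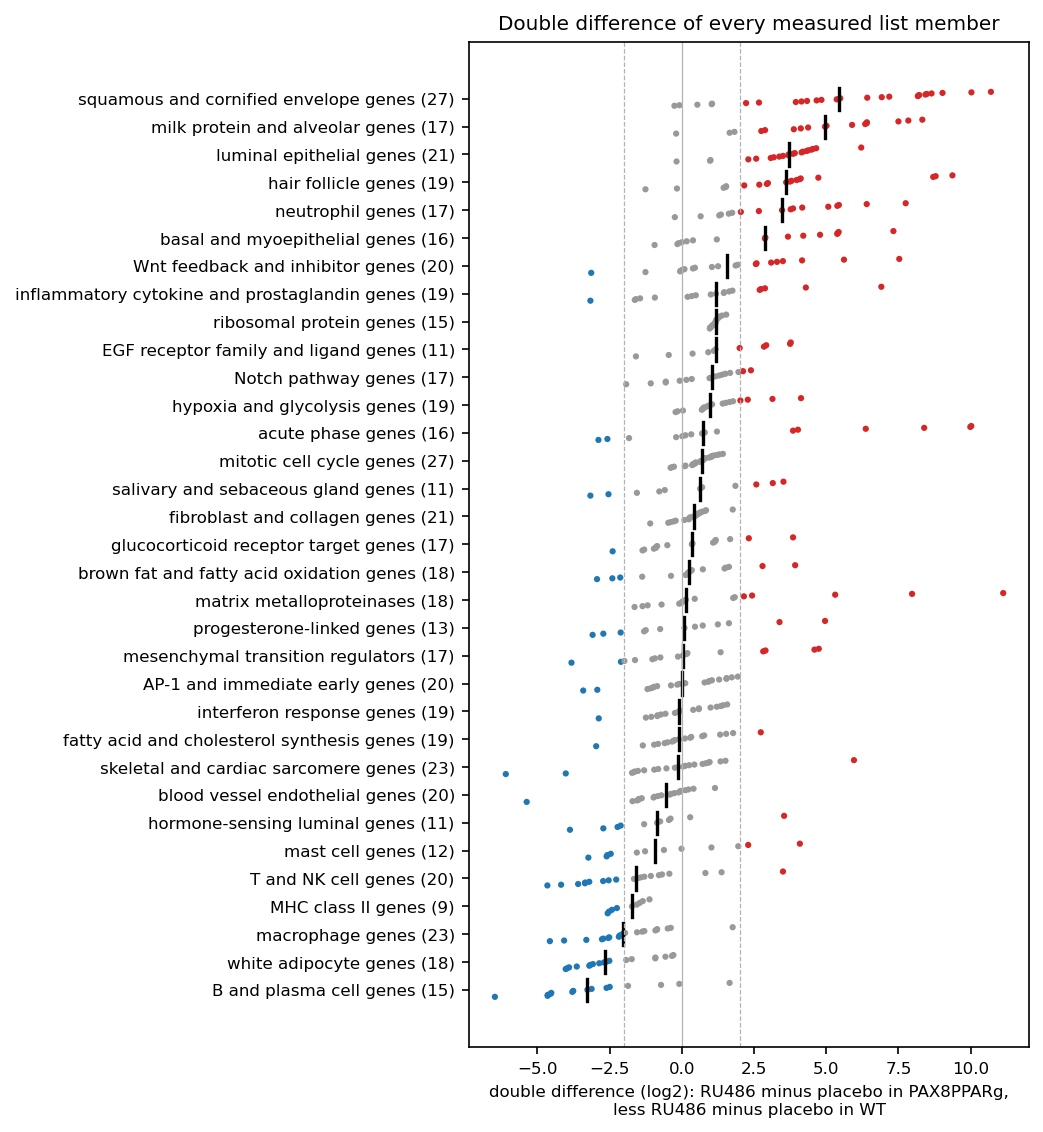
Double difference (x axis, log2) of every measured member of 33 gene lists (rows, number of members in brackets), 1 point per gene, with the list median as a black bar. Red points are at least 2, blue points at most -2, and the dashed lines mark these values. The highest list median is that of the squamous genes (5.45) and the lowest that of B and plasma cell genes (-3.27).

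Neutrophil genes, and part of the acute phase genes, had positive values. Of 17 neutrophil genes 11 passed 2 log2 and 0 passed -2, with a median of 3.47 (-1.22 in WT, 1.95 in PAX8PPARg). The lists share members: Ltf is also among the milk genes, and Lcn2 among the acute phase genes and glucocorticoid receptor targets. S100a9, a calgranulin abundant in neutrophils and also made by stressed keratinocytes, read 2366, 356, 394 and 2517 (5.44). Stfa3, a stefin protease inhibitor of myeloid cells, read 430, 7.5, 22.0 and 378 (7.75), and the chemokine gene Cxcl5 read 465, 39.4, 0.5 and 42.3 (5.07). The granule genes Elane, Ngp and Mpo, which mark neutrophils in formation, were dim, at most 27.1 on any array, with double differences of -0.24, 0.65 and 1.36. The median was 1.96 with 64 added and 2.02 with a common floor. Keratinocyte genes moved on the same arrays, and their part was not tested.

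The acute phase list was split. Saa3, which is made locally by inflamed epithelium and macrophages, read 4393, 238, 23.0 and 2063 (9.99), Saa2 4090, 48.6, 30.7 and 209 (8.39), and Pigr, the receptor that carries antibodies across epithelium, 724, 24.4, 40.5 and 217 (6.37). The fibrinogen genes, typical of liver, went the other way. Fgg read 202, 123, 1383 and 94.0 (-2.89) and Fgb 70.3, 88.6, 541 and 87.3 (-2.58), both highest on the PAX8PPARg placebo array. In all 6 of 16 measured genes passed 2 log2 and 2 passed -2, with a median of 0.75.

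Proteases, growth factor ligands and cytokines differed between genotypes through a few members. Of 18 matrix metalloproteinase and inhibitor genes 5 passed 2 log2 and 0 passed -2, so the median was 0.13 while the mean was 1.58. Beside Mmp13 and Mmp10, the macrophage elastase gene Mmp12 read 726, 109, 149 and 995 (5.31). Mmp9 and Timp1 had the PAX8PPARg placebo array alone low: Mmp9 read 841, 1519, 150 and 1452. The stromal enzymes Mmp2, Mmp3 and Mmp14 had double differences of 0.12, -0.02 and 0.14, and Mmp11 was lower with RU486 in both genotypes (-1.91 and -1.87).

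The 11 EGF family genes had a median of 1.17, and 5 passed 2 log2. Hbegf, a ligand, read 734, 445, 45.2 and 453 (3.77), Tgfa, another ligand, 137, 22.1, 88.2 and 303 (3.75), and Erbb3, a receptor of luminal cells, 1693, 127, 2556 and 1470 (2.92). The low array was PAX8PPARg placebo for Hbegf and WT RU486 for Tgfa and Erbb3. The receptor gene Egfr had 1.11 and the ligand gene Btc -1.59. Of 19 cytokine and prostaglandin genes 5 passed 2 log2, among them Il24 (204, 25.3, 4.9 and 413, a value of 6.91), the growth factor gene Csf2 (77, 4.7, 8.0 and 79.6, a value of 4.29), Il1b (1127, 694, 115 and 529, a value of 2.88) and Ptgs2, the inducible cyclooxygenase gene (567, 1067, 9.3 and 271, a value of 2.74). Csf1, the growth factor of macrophages, was the 1 gene past -2, at 830, 6366, 744 and 568 (-3.16).

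Wnt feedback genes and inhibitors had a median of 1.56 over 20 genes, with 8 past 2 log2 and 1 past -2. Wif1, which binds Wnt ligands outside the cell, read 875, 22.5, 235 and 1815 (7.53). Rnf43, a ligase that removes Wnt receptors, read 647, 11.2, 285 and 536 (5.61), and Nkd2, an intracellular inhibitor, 773, 622, 454 and 3904 (3.50). Wif1 and Rnf43 were both high on the crossed pair of arrays, and Nkd2 was high on the PAX8PPARg RU486 array alone. Axin2, a feedback target of canonical Wnt signalling, read 775, 413, 349 and 1070 (2.59). Dkk2, a secreted inhibitor, was the gene past -2, at 123, 1613, 102 and 128 (-3.14).

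Luminal and milk genes owed their positive values mostly to WT. Of 21 luminal genes 18 passed 2 log2 and 0 passed -2, with a median of 3.70 made of -3.25 in WT and 0.46 in PAX8PPARg, and the WT RU486 array was the lowest for 20 of the 21. Cdh1, the E-cadherin gene, read 2403, 157, 1934 and 3177 (4.65), and Ehf, an epithelial transcription factor gene, 2936, 144, 2051 and 2361 (4.54). The other 3 arrays lay within 1 log2 of each other for both. Esrp2, an epithelial splicing regulator gene, read 969, 1008, 1142 and 951 and was the 1 luminal gene below 0 (-0.18), but its second probe set gave 3.48. Its relative Esrp1 read 1517, 66.5, 1697 and 1198 (3.85).

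Of 17 milk protein and alveolar genes 14 passed 2 log2, with a median of 4.96 (-5.05 in WT and 0.06 in PAX8PPARg). All 17 had their highest level on the WT placebo array, and the summed signal was 100540, 5795, 27645 and 28073. Csn2, the beta-casein gene, read 11273, 430, 3159 and 6796 (5.90). All 5 casein genes of chromosome 5 passed 2 log2, from 2.88 for Csn3 to 6.35 for Csn1s2b. Elf5, the transcription factor of alveolar cells, read 3415, 41.9, 1650 and 782 (4.96). Glycam1 and the mucin gene Muc15 were lower with RU486 in both genotypes, by unequal amounts (-5.52 and -2.77, and -5.07 and -3.41).

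Basal genes were divided in part by their role. Of 16 measured 9 passed 2 log2, and these were keratin, laminin and hemidesmosome genes and Trp63. The list's median was 2.88, from -2.46 in WT and 0.44 in PAX8PPARg. For 7 of the 16 the level with RU486 was at least 2-fold lower in WT and at least 2-fold higher in PAX8PPARg. Itga6, an integrin gene of the hemidesmosome, did not pass (0.00, and 0.49 on its second probe set). Krt14, a keratin of basal cells, read 5817, 199, 1475 and 8034 (7.33), and Lama3, a basement membrane laminin gene, 1059, 74.5, 655 and 1406 (4.79). The 3 probe sets of Krt14 ranged from 1.37 to 7.41. Trp63, the p63 gene that defines basal cells, read 1222, 157, 1726 and 1637 (2.89), low on the WT RU486 array alone. Several contractile genes of myoepithelium had small double differences with lower levels under RU486 in both genotypes: Myh11 read 1370, 266, 2015 and 323 (-0.15), Mylk 1862, 683, 2998 and 1136 (0.17) and the oxytocin receptor gene Oxtr 128, 21.5, 171 and 42.0 (0.39). The second probe set of Myh11 gave 0.94. The smooth muscle actin gene Acta2 read 5392, 1584, 5395 and 3366 (1.21), and its second probe set gave -3.15, so its direction is not settled.

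Macrophage genes were the counterpart on the negative side. Of 23 measured 13 passed -2 log2 and 0 passed 2, with a median of -2.04 made of 1.79 in WT and 0.06 in PAX8PPARg. The WT RU486 array was the highest for 22 of the 23, and the summed signal was 35810, 112476, 38625 and 42897. Siglec1, a lectin of tissue macrophages, read 74.8, 1016, 195 and 114 (-4.07), and Mrc1, the mannose receptor gene, 1345, 7957, 1094 and 1023 (-2.51). Lyve1, of lymphatic vessels and some tissue macrophages, read 192, 4366, 625 and 282 (-5.37), and Ccr2, the receptor of recruited monocytes, 313, 1880, 435 and 147 (-3.86). Marco, a scavenger receptor gene, had another pattern, at 21.4, 15.6, 1135 and 21.4. The MHC class II list had a median of -1.72 over 9 genes, with 4 past -2, and Cd74 read 4334, 10146, 5541 and 4294 (-1.46). On the WT RU486 array the luminal sum was 8032 where the other arrays had 43439 to 51000, and what part the macrophage and luminal values have in each other was not tested.

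Mast cell and mesenchymal genes included members of the same pattern. The mast cell list had a median of -0.95 over 12 genes, with 2 past 2 log2 and 4 past -2. The mast cell proteases Tpsb2 (78.9, 525, 86.7 and 71.9, a value of -2.60) and Cpa3 (93.7, 337, 102 and 42.2, a value of -2.58) were highest on the WT RU486 array. Kit, which mast cells share with luminal progenitors, went the other way, at 516, 95.1, 598 and 559 (2.30). Zeb2, a repressor of E-cadherin that macrophages also express, read 460, 2861, 769 and 291 (-3.82). Mesenchymal transition regulators had no common direction, with a median of 0.04 that was -0.31 under quantile normalization.

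Adipocyte genes owed their negative values to the PAX8PPARg pools. Of 18 measured 11 passed -2 log2 and 0 passed 2, with a median of -2.65 made of -0.96 in WT and -3.53 in PAX8PPARg. All 18 had their highest level on the PAX8PPARg placebo array, and the summed signal was 14932, 6957, 45717 and 5881. Adipoq, the adiponectin gene, read 329, 165, 4509 and 123 (-3.97), and Lep, the leptin gene, 58.7, 40.3, 923 and 23.8 (-4.02). The 3 other arrays were far below it for both genes. Pparg itself, which belongs to this list, read 75.9, 35.4, 498 and 13.2 (-3.17, or -2.35 with the common floor). Whether its probe set also reads the fusion transcript is not known here. Lpl and Gpd1, of lipid storage, were lower with RU486 in both genotypes and had double differences of -0.92 and -0.29. Of the members at or above the median level the median was -1.73.

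Lymphocyte genes had the same high array. Of 15 B and plasma cell genes 11 passed -2, with a median of -3.27 (0.80 in WT, -2.65 in PAX8PPARg). Ighm, the immunoglobulin M heavy chain gene, read 101, 1177, 826 and 72.0 (-6.47), with its 11 probe sets from -7.83 to 0.21, and Igkv8-30, a kappa chain segment, 216, 3431, 6783 and 574 (-7.29). Both antibody genes were high on the crossed pair of WT RU486 and PAX8PPARg placebo. The B cell receptor gene Cd79b, at 21.2, 48.9, 627 and 28.6 (-4.52), was high on the PAX8PPARg placebo array only, as were Cd79a, Ms4a1 and Pou2af1. The plasma cell regulator gene Prdm1, which epithelium also expresses, read 218, 82.4, 109 and 135 (1.65). On the PAX8PPARg RU486 array 10 of the 15 did not exceed background, and the median was -2.11 with 64 added and -4.93 with 1 added.

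The median over 20 genes of T and NK cells was -1.59, with 9 past -2 and 1, Gzmb, past 2. Cd3g, of the T cell receptor complex, read 82.0, 115, 544 and 58.0 (-3.20), and the chemokine gene Ccl5 read 201, 234, 1525 and 142 (-3.35). For 15 of the 20 the PAX8PPARg placebo array was the highest. The median was -0.88 with 64 added, -0.97 with a common floor and -2.43 with 1 added, and on the PAX8PPARg RU486 array 10 of the 20 did not exceed background. Endothelial genes were also highest on the PAX8PPARg placebo array for 17 of 20, with a median of -0.56 and 1 gene, Lyve1, past -2. The vessel receptor gene Kdr read 314, 258, 811 and 206 (-1.50).

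**Figure D5:**
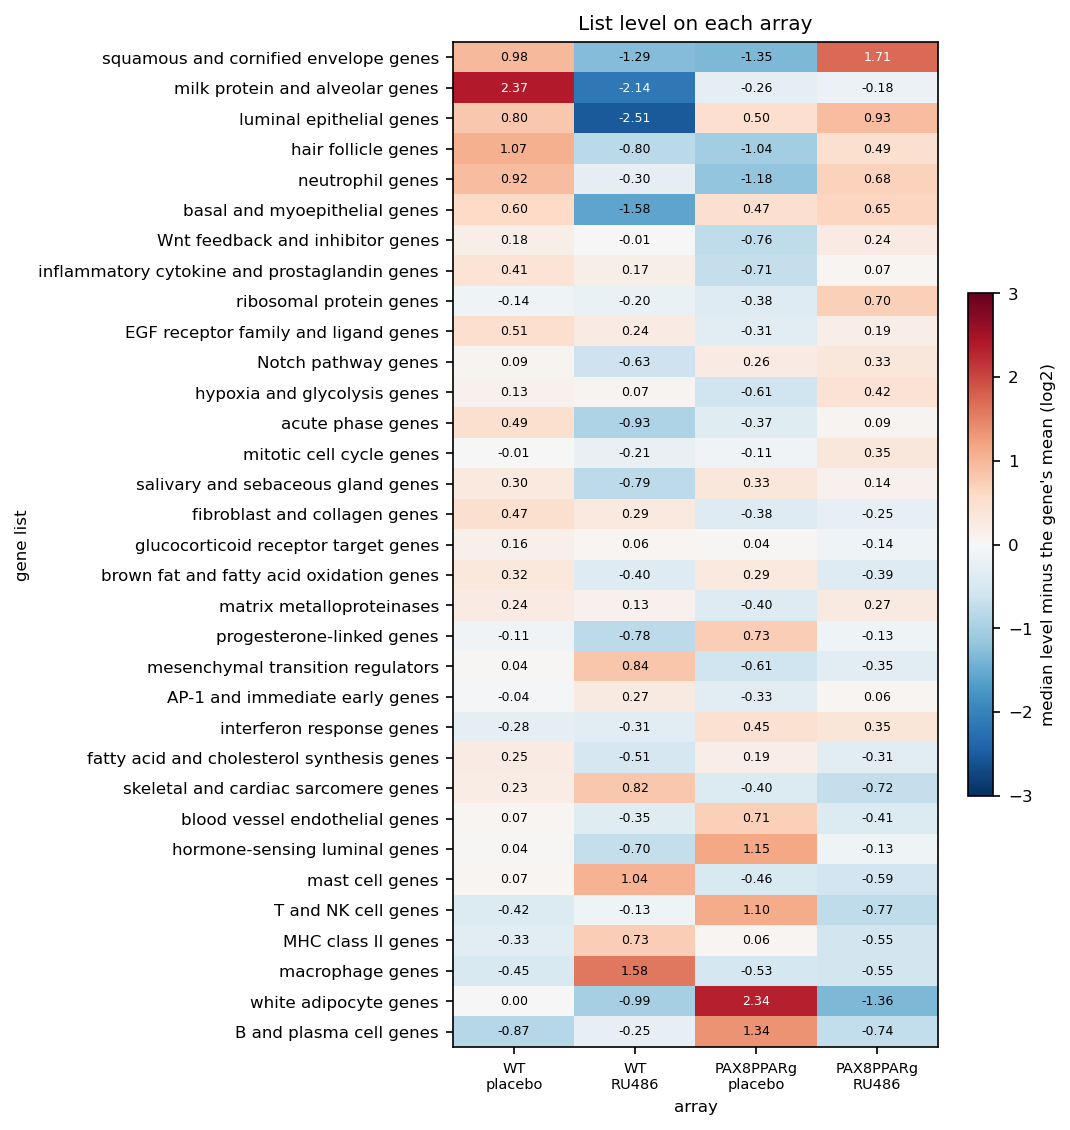
Median level of each gene list (rows) on each of the 4 arrays (columns), as the difference from each gene's mean over the arrays (log2, colour and number). The WT RU486 array is lowest for luminal genes (-2.51) and highest for macrophage genes (1.58), and the PAX8PPARg placebo array is highest for adipocyte genes (2.34).

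Hormone-sensing luminal genes were highest on the PAX8PPARg placebo array in 8 of 11 cases and did not follow the luminal list. Their median was -0.85, with 4 past -2 and 1 past 2. Esr1, the estrogen receptor gene, read 106, 78.3, 363 and 2.3 (-3.87, or -2.39 with the common floor), and Foxa1, its pioneer factor, 247, 41.5, 1146 and 33.6 (-2.22). Pgr, the progesterone receptor gene, read 37.3, 37.9, 236 and 78.0 (-1.31). Tnfsf11, the RANKL gene that progesterone induces, read 669, 106, 3139 and 102 (-2.12), near the same level on both RU486 arrays. The gene past 2 was Prom1, which marks part of this lineage, at 544, 60.8, 561 and 824 (3.54).

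Of 13 genes linked to progesterone the median double difference was 0.09, with negative medians in WT (-1.13) and in PAX8PPARg (-1.0), with 2 past 2 log2 and 3 past -2. Stat5a, which carries prolactin signals, read 2255, 362, 1399 and 338 and was lower with RU486 in both genotypes (0.72). Cxcl12, a chemokine of stroma and hormone-sensing cells, was high on the PAX8PPARg placebo array, at 380, 475, 1584 and 197 (-3.09), and Id4, a regulator of progenitors, was low on the WT RU486 array, at 5464, 1247, 4762 and 10468 (3.38). Of 17 glucocorticoid receptor targets 2 passed 2 log2 and 1 passed -2, with a median of 0.35. Values were above 0 for 9 of the 17, led by Lcn2 (3.85) and Ddit4 (2.32), and below 0 for 8. Among the latter, Fkbp5, a sensitive target, read 344, 348, 520 and 238 (-0.97), and Tsc22d3, the GILZ gene, 774, 772, 745 and 254 (-1.36). Both were lowest on the PAX8PPARg RU486 array. The other probe sets of Tsc22d3 gave -0.60 and -0.15. The receptor gene Nr3c1 had a double difference of -0.50.

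A further group had its lowest level on the PAX8PPARg placebo array, which stood alone for Inhba and Tnc. For Hmga2 and Tnnt2 the other arrays did not lie within 1 log2 of each other. Inhba, the activin A subunit gene, read 2336, 1185, 121 and 1518 (4.59), and Tnc, the tenascin-C matrix gene, 6178, 6204, 824 and 5412 (2.82). Hmga2, a chromatin protein gene active in embryonic and tumour cells, read 3671, 7073, 45.8 and 2886 (4.74). Both RU486 arrays were near or above the WT placebo array for Hmga2, and the PAX8PPARg placebo array was far below. Tnnt2, a cardiac troponin gene, had the same low array, at 1627, 825, 59.5 and 2179 (5.96), while the 23 sarcomere genes of its list had a median of -0.13 and Myh7, of slow muscle, went the other way at 21.0, 386, 146 and 7.5 (-6.09).

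Ribosomal protein genes had small and even values on their brightest probe sets, while hypoxia and glycolysis genes varied. The 15 ribosomal protein genes lay between 0.97 and 1.54, with a median of 1.17, and the PAX8PPARg RU486 array was the highest for all 15. Rps3 read 12627, 12959, 11608 and 24311. Under quantile normalization the median was 0.33, so the size depends on the scaling. It also depends on the probe set: the lowest was -1.07 for Rps20, -1.01 for Rps9 and -0.42 for Rps24. All probe sets of Rpl7, Rpl27, Rps14 and Rps6 were above 0, the lowest of them 0.24 for Rps6. Of 19 hypoxia and glycolysis genes 4 passed 2 log2, with a median of 0.98 and a range from -0.22 for Pfkp to 4.13. Ndrg1, a hypoxia and differentiation gene, read 5482, 1062, 2096 and 6580 (4.13), and Ldha, a glycolytic enzyme gene, 7728, 8268, 5362 and 10302 (0.98).

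Mitotic and fibroblast genes had no member past 4-fold, and other lists had low medians with a few members past it. Of 27 mitotic cell cycle genes 0 passed 2 log2 in either direction, with a median of 0.68, and Mki67, the Ki-67 gene, read 3494, 3172, 3166 and 4355 (0.73). Of 21 fibroblast and collagen genes 0 passed, and Col1a1 read 8855, 11588, 5462 and 9480 (0.54); the list's median was 0.41 and was -0.01 under quantile normalization. Interferon response genes had a median of -0.10, with Mx1 (-2.88, or -0.94 with the common floor) past -2. Lipid synthesis genes also had a median of -0.10, with Thrsp (2.73) and Elovl6 (-2.97) past 4-fold. The sign of either median turned with at least 1 setting. Brown fat and oxidation genes had a median of 0.25, with 2 of 18 past 2 log2, Fabp3 (3.92) and Ppargc1a (2.79), and 3 past -2, and salivary and sebaceous gland genes of 0.63, with 3 of 11 and 2. Notch pathway genes had a median of 1.04, with 2 of 17 past 2 log2, Dll1 (519, 131, 613 and 810, a value of 2.39) and Dtx1 (75.7, 2.8, 99.4 and 77.8, a value of 2.12).

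Levels were lower with RU486 in both genotypes for more genes than they were higher. Among the 6197 genes 87 were at least 2-fold lower with RU486 in both genotypes and 13 at least 2-fold higher. Among genes at least 4-fold lower in both with a double difference under 1 log2, the 6 with the largest smaller response were taken, and no gene was at least 4-fold higher in both in this way. Defb1, an epithelial defensin gene, read 955, 31.6, 4074 and 268 (-4.35 in WT and -3.71 in PAX8PPARg). Cdo1, a cysteine dioxygenase gene of fat and liver, read 2115, 358, 6220 and 667 (-2.51 and -3.06), and Acss2, an acetyl-CoA synthetase gene, 393, 58.3, 1513 and 114 (-2.46 and -3.42). All 3 were highest on the PAX8PPARg placebo array. The others were Gpd1, Lpl and Myh11. The genes Cyp2e1, Cited1, Cd36 and Tnfsf11 were at least 2-fold lower in both as well but passed -2, since the difference in PAX8PPARg was the larger.

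Second probe sets of the genes past 4-fold gave the same direction. Of the 248 positive genes, 58 had another bright enough probe set (a level not under the median); it had the same sign in all 58, was at least 2-fold in 55 and at least 4-fold in 48. Of the 185 negative genes 40 had one, with the same sign in all 40, at least 2-fold in 39 and at least 4-fold in 26. These probe sets were read on the same 4 arrays, so they bear on the probes and not on the spread between pools.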

How the data were processed

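Signals of 22690 probe sets were deposited by the authors as intensities, 1 array per group; no source used here names the algorithm behind them, and their equal trimmed means show a common target. Probe sets were named from GEO's platform annotation: 20380 of 22626 non-control probe sets had 1 gene symbol, 691 had several and 1555 had none. Of 21084 annotated probe sets 20364 matched RefSeq (GRCm38.p6), and 0 symbols were updated. For each gene the brightest probe set was kept, 16 was added, log2 was taken and the array's median was subtracted. Python 3.11.15, numpy 2.4.6, pandas 2.3.3 and matplotlib 3.10.9 were used, and the calculation was tested on simulated data.

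Named genes were the 15 with the largest double difference in each direction at or above the median level, up to 6 that moved alike in both genotypes, steroid and nuclear receptor genes, and up to 6 members per list in the direction of its median. Other members, and genes of neighbouring stretches, were named after their values were seen. The comparison, the members and the lists were chosen with earlier results of these data known. With 1 array per group there is no test, error or depth: the number of arrays limits the precision. Alternatives were an added value of 1 or 64, no centring, quantile normalization, the mean of a gene's probe sets, a common background floor and other level filters.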

Additional observations from a re-analysis of the deposited data

Results flagged for a closer look

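The values below stood out because the RU486 difference had opposite directions in the 2 genotypes, by at least 1 log2 in each for a list median and by at least 2 log2 in each for a gene. With 1 array per group the difference between genotypes was not tested. The list medians of the double difference were 5.45 for squamous, 3.61 for hair follicle and 3.47 for neutrophil genes.

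Among the ranked genes, all at or above the median level, the double difference was 11.13 for Mmp13 and 10.70 for Krt6a. The serum amyloid genes had 10.02 (Saa1), 9.99 (Saa3) and 8.39 (Saa2). Genes of keratinised epithelium followed, with 9.15 for S100a14, 9.03 for Asprv1, 8.65 for Krt79, 8.24 for Aqp3, 8.22 for Dmkn, 8.19 for Krtdap and 7.48 for Klk8. Wap had 8.33 and Wif1 had 7.53. In the opposite direction stood 3 immunoglobulin genes, with -7.29 for Igkv8-30, -6.47 for Ighm and -5.99 for Igk.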

How the results depend on the processing

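No paired analysis was possible because each group had 1 array and no replicate numbers. No list median or named gene with a double difference of at least 2 log2 changed sign under any alternative run. Some smaller values of named genes did: Defb1 ranged from -0.12 to 1.10, Gpd1 from -0.51 to 0.16, Myh11 from -0.33 to 0.39 and Sparc from -0.08 to 0.66. The small medians of the metalloproteinase, fibroblast, mesenchymal, interferon, lipid synthesis, progesterone-linked, glucocorticoid receptor, immediate early, sarcomere, and salivary and sebaceous lists also changed sign with at least 1 setting, so they carry no direction. Of 64 count values 46 stayed within 1.5 times the reported count. Of 262 list median values 182, and of 1302 named gene values 890, moved by less than 0.24 log2, the median SD between probe sets of a gene. With no level filter, 645 and 472 genes passed 4-fold, 251 and 131 had opposite responses, 138 and 116 had the WT RU486 array alone lower and higher, and 150 and 53 had the arrays in crossed pairs. With the level at the 75th percentile these counts were 95 and 57, 28 and 13, 30 and 24, and 16 and 3. The negative crossed pairs, 14 as reported, were 9 with 64 added and 26 without centring. With 1 added the medians were 8.70 (squamous), 5.00 (hair), 4.56 (neutrophil), 4.13 (luminal) and -4.93 (B and plasma cell); with 64 added they were 3.14, 2.07, 1.96, 3.05 and -2.11, with 4.13 for milk, 2.57 for basal and -2.34 for adipocyte genes. With the common floor they were 3.68 (squamous), 2.07 (hair), 2.02 (neutrophil) and -2.54 (B and plasma cell). Quantile normalization gave 3.34 (hair) and -2.93 (adipocyte), and the mean of probe sets gave 2.98 and -2.31. Over members at the median level the medians were 8.22 (squamous), 5.38 (neutrophil), 4.03 (luminal), 4.67 (milk), -4.64 (B and plasma cell) and -1.73 (adipocyte); hair genes gave none, since none reached that level. The mean over members was 3.42 (luminal), 4.70 (milk), -2.99 (B and plasma cell) and -2.35 (adipocyte). The cause of these shifts was not tested. Positive genes were 57.3% of those past 4-fold, 53.1% without centring and 55.1% under quantile normalization.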

Other observations

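Probe sets without a single gene name were not part of the gene counts. Of 1555 with no symbol, 478 reached the median level, and 19 of these had a double difference of at least 2 log2 and 21 of at most -2, together 8.37%. Of 691 with several symbols 378 reached it, with 6 and 10 past these values (4.23%). For probe sets with 1 symbol, counted in the same way, the numbers were 335 and 253 of 9593 (6.13%).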
